A study of Mus musculus with 8 samples.

Results

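Sting1 and 8 further genes of cytosolic DNA and RNA sensing were followed in mouse Paneth cells, which sit deep in the crypts of the small intestine and secrete antimicrobial peptides, after an injection of tumor necrosis factor (TNF), an inflammatory cytokine. The 9 genes (Cgas, Sting1, Aim2, Rigi, Ifih1, Dhx58, Mavs, Tbk1 and Ikbke) were found by matching the Ensembl IDs of the count table to gene symbols. All 9 were present among the 55414 gene IDs of the table, and all 9 were among the 13368 genes that passed the filter on low counts. Sting1 was chosen by its rise in these same libraries, so its difference between the groups is given as a description, with no test. The other 8 were listed by name, with earlier results of these data known, and were tested in the fit over all genes.

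Wild-type (WT) mice received either PBS, the saline control, or TNF, and 3 hours later the small intestine was taken and its Paneth cells (PCs) were isolated by cell sorting. Each group had 4 mRNA libraries, prepared from extracted total RNA, and both groups carried the same labels for genotype, tissue, cell type and time and differed in the injected agent. The labels give no sex, sort day or batch. Sorted PCs came from C57BL/6J mice per the methods, and the dose and route of TNF and the age of the mice were not given in the sources used here. The question was which genes TNF alters in PCs, and the design text calls the libraries biological replicates. The methods describe samples from individual mice, but the labels do not tie these libraries to animals, so p-values measure the spread between these libraries.

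Cells recognize nucleic acid in the wrong place through a few sensors. cGAS binds DNA in the cytosol and makes the cyclic dinucleotide cGAMP, which binds STING on the endoplasmic reticulum, while AIM2 binds DNA and assembles an inflammasome. RIG-I (encoded by Rigi) and MDA5 (Ifih1) bind double-stranded RNA and signal through MAVS on mitochondria, and LGP2 (Dhx58) is a related helicase that lacks the signaling domains. STING and MAVS both recruit the kinases TBK1 and IKK-epsilon (Ikbke), which phosphorylate the transcription factor IRF3 and so switch on type I interferon genes. In the intestinal epithelium these pathways are known for antiviral defense and for responses to microbial DNA.

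The libraries held between 23824717 and 32576077 counts. TNF replicate 4 stood apart: its scaling factor (TMM, which corrects for a few very abundant genes) was 0.448 against 0.995 to 1.36 in the other libraries, and its correlation with the other TNF libraries was at most 0.9523 where theirs with each other was at least 0.9846. Values without it are given for each member, and every named pathway gene that was called with all libraries was also called without it, with log2 fold changes that moved by at most 0.29. All 7 Paneth cell markers listed passed the filter, with 2 called higher in TNF, and their sum was 271000 to 395000 normalized CPM (counts divided by the library size after TMM adjustment) in PBS and 338000 to 1030000 in TNF, highest in TNF replicate 4 (9525181 to 12020154 counts per library over both groups). Of 12 leukocyte markers 6 (Cd3e, Cd8a, Cd79a, Itgax and Adgre1 among them) had no count in any library, and Ptprc had at most 10. Cd52 was the one leukocyte marker called (higher), and the summed leukocyte markers, mostly Lyz2 (which resembles the Paneth gene Lyz1), ranged from 7.31 to 13.0 normalized CPM in PBS and from 10.8 to 68.7 in TNF. The top value was that of TNF replicate 4, with 749 counts of Lyz2 against 266 to 352 in the other TNF libraries and 276 to 312 in PBS. Of 8 endothelial and stromal markers Col3a1 had no count and Vim was called higher, with sums of 0.26 to 0.452 and of 1.23 to 1.80 normalized CPM. Among other epithelial markers, 1 of 8 enterocyte genes was called higher and 1 lower, 2 of 7 goblet cell genes higher and 2 lower, 4 of 6 stem cell genes lower, and 3 of 6 tuft and enteroendocrine genes tested (of 7 listed) higher, beside 23.4% of all genes tested called higher and 19.6% lower. The part of these shifts in the results below was not tested, and in such bulk libraries fewer cells of a type and less RNA per cell cannot be told apart.

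Of the 8 tested members 6 were higher in TNF (Cgas, Rigi, Ifih1, Dhx58, Tbk1 and Ikbke), 1 was lower (Mavs) and 1 was not called (Aim2), at an adjusted p under 0.05 in edgeR. Across all 13368 genes 43.0% were called, 23.4% as higher and 19.6% as lower. In normalized CPM the 4 TNF values lay outside the range of the 4 PBS values for every member except Aim2, which was so for 42.1% of all genes. As plain CPM (counts divided by all counts of the library) TNF replicate 4 lay below every PBS library for Cgas, Rigi, Ifih1 and Dhx58. With library size alone as the scaling, 3 members were called (Tbk1 and Ikbke higher, Mavs lower), beside 5.66% of all genes higher and 18.1% lower. Once TNF replicate 4 was left out as well, a combination chosen after the data were seen, 6 were called, beside 16.4% and 28.2%. That scaling shifted the median log2 fold change of all genes from 0.03 to -0.38, and measured from that median Cgas was 1.05 above it with TMM and 1.14 above it with library size alone, Ifih1 1.11 and 1.12, and Tbk1 1.75 and 1.72.

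**Figure D1:**
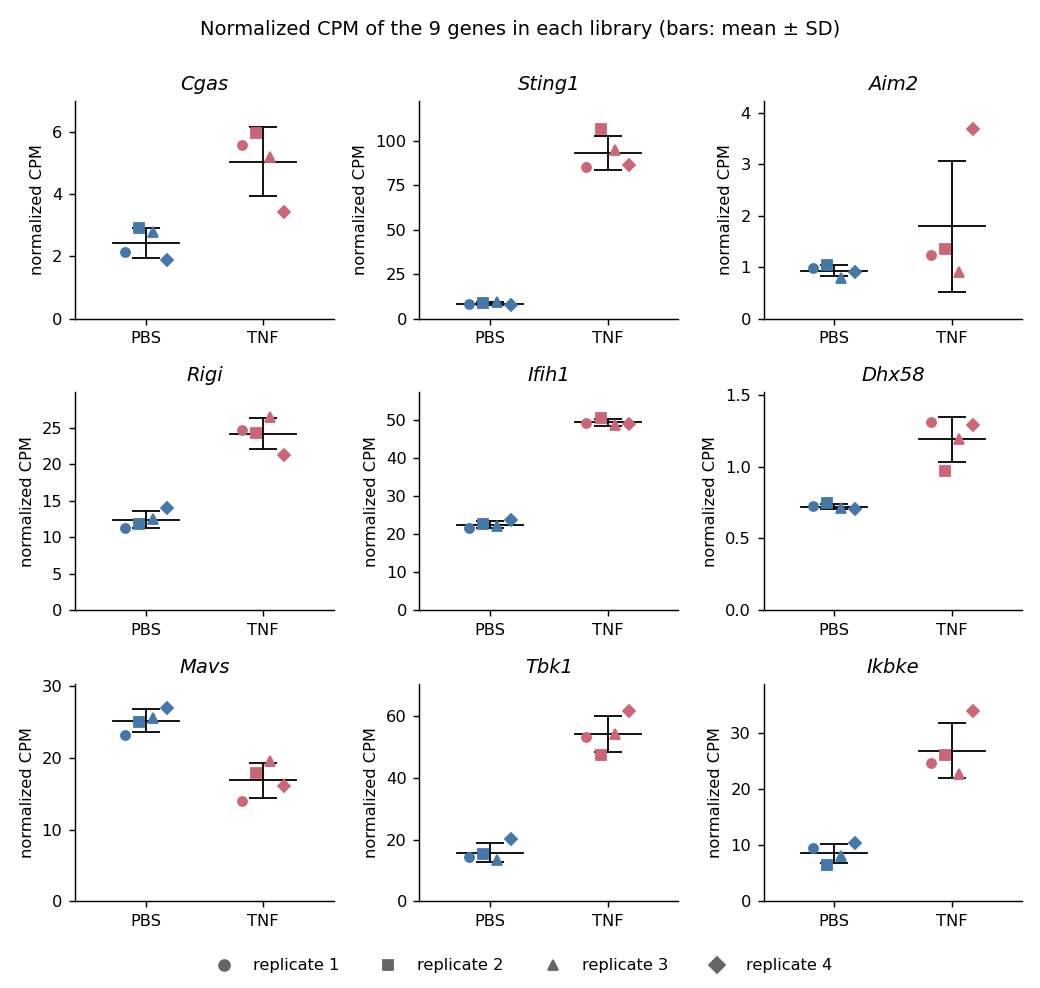
Normalized CPM (vertical axis, linear, from 0) of the 9 genes in the 4 PBS (blue) and 4 TNF (red) libraries; a marker shape stands for a replicate number, and the bars are mean ± SD. Sting1 goes from 8.46 to 93.2, Mavs is the member with lower values in TNF, and Aim2 has a single high TNF library at 3.69.

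Cgas, the DNA sensor (ENSMUSG00000032344, GRCm39 chromosome 9, 78337802 to 78350535, minus strand), was about doubled in TNF. Its normalized CPM in PBS replicates 1 to 4 were 2.14, 2.90, 2.80 and 1.90, and in TNF replicates 1 to 4 they were 5.57, 5.95, 5.19 and 3.44. All TNF values were above all PBS values, with TNF replicate 4 nearest to them. As plain CPM that library had 1.54, below the lowest PBS value of 2.58. Mean normalized CPM rose from 2.44 ± 0.489 to 5.04 ± 1.11 (SD, n = 4), which is 1.08 on the log2 scale (SE 0.22, adjusted p = 0.00225). Leaving out TNF replicate 4 gave 1.22 (adjusted p = 0.000182). With library size alone the log2 fold change was 0.76 (adjusted p = 0.148). Of all 75-base stretches in its canonical transcript 64.9% occur in no other gene: an antisense RNA, Gm68924, which is not in the count table, covers 1785 of its exon bases.

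Sting1 (ENSMUSG00000024349, GRCm39 chromosome 18, 35866732 to 35873607, minus strand), the adaptor that binds the product of cGAS, had the largest change of the 9 members. It had 301, 234, 239 and 338 counts in the PBS libraries and 2405, 3074, 2695 and 1006 in the TNF libraries. After scaling these were 8.07, 8.70, 9.42 and 7.65 normalized CPM in PBS and 85.3, 106.4, 94.6 and 86.4 in TNF. Each group was tight, and the lowest TNF library lay far above the highest PBS library. The mean went from 8.46 ± 0.772 to 93.2 ± 9.72 normalized CPM (SD, n = 4), an 11.0-fold difference (log2 3.46, SE 0.13). TNF replicate 4, the lowest TNF library in counts, was also lowest as plain CPM (38.7 against 94.4 to 105.9 in the other TNF libraries), which is still above the highest PBS value of 10.4. Over the alternatives the log2 difference lay between 3.10 (library size alone) and 3.52, and without TNF replicate 4 it was 3.52. Each 75-base stretch in its canonical transcript is unique to the gene.

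Aim2, the DNA sensor of an inflammasome (ENSMUSG00000037860, chromosome 1, 173178445 to 173293930, plus strand), was scarce. It had 20 to 40 counts in the PBS libraries and 26 to 43 in the TNF libraries. In normalized CPM the PBS values were 0.992, 1.04, 0.788 and 0.905, and the TNF values 1.24, 1.35, 0.912 and 3.69. The groups overlapped, and TNF replicate 4 alone was far above the others. TNF and PBS differed by 0.85 on the log2 scale (SE 0.41, adjusted p = 0.116), or by 0.34 with that library left out (adjusted p = 0.294).

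The adaptor was also set against its sensor. The count of Sting1 relative to Cgas in the same library, a ratio that needs no scaling, had a geometric mean of 3.52 in PBS and 18.8 in TNF, and the groups did not overlap. As Sting1 was chosen by its rise, this ratio has no test.

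Both RNA sensors were higher in TNF, each by close to a doubling. Rigi (ENSMUSG00000040296, chromosome 4, 40203772 to 40239852, minus strand) had 11.3, 11.8, 12.5 and 13.9 normalized CPM in PBS and 24.6, 24.3, 26.4 and 21.3 in TNF. Ifih1 (ENSMUSG00000026896, chromosome 2, 62425714 to 62476607, minus strand) had 21.5, 22.6, 22.2 and 23.7 in PBS and 49.4, 50.8, 48.7 and 49.0 in TNF. Neither gene's groups overlapped in these values, and Ifih1 was nearly the same in all libraries of a group. As plain CPM TNF replicate 4 lay below every PBS library, at 9.54 for Rigi (lowest PBS value 12.4) and 22.0 for Ifih1 (23.6). Mean normalized CPM of Rigi rose from 12.4 ± 1.14 to 24.2 ± 2.11 (SD, n = 4), or by 0.97 on the log2 scale (SE 0.12, adjusted p = 8.04e-05). That of Ifih1 rose from 22.5 ± 0.900 to 49.5 ± 0.905, or by 1.14 (SE 0.09, adjusted p = 6.22e-06). With library size alone they were 0.60 (adjusted p = 0.209) and 0.75 (adjusted p = 0.098). Without TNF replicate 4 they were 1.03 and 1.16.

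Dhx58, which encodes the helicase without signaling domains (ENSMUSG00000017830, chromosome 11, 100585710 to 100595097, minus strand), was low, with 15 to 37 counts per library. Its normalized CPM were 0.724, 0.744, 0.709 and 0.701 in PBS and 1.31, 0.969, 1.19 and 1.29 in TNF. The groups did not overlap in these values, though as plain CPM TNF replicate 4 had 0.577, below the lowest PBS value of 0.756. The log2 fold change was 0.72 (SE 0.23, adjusted p = 0.0292). It was 0.70 without TNF replicate 4 (adjusted p = 0.0365). The call was lost with library size alone (log2 0.32, adjusted p = 0.559), with DESeq2 (adjusted p = 0.0657) and whenever any library other than TNF replicate 2 or TNF replicate 4 was left out (adjusted p between 0.0615 and 0.105). The antisense gene Dhx58os shares 141 exon bases with it and had at most 8 counts in a library.

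Mavs, the mitochondrial adaptor of both RNA sensors (ENSMUSG00000037523, chromosome 2, 131075442 to 131096740, plus strand), moved the other way. It had 23.2, 25.0, 25.6 and 26.9 normalized CPM in PBS and 13.9, 17.8, 19.5 and 16.1 in TNF. The highest TNF library was below the lowest PBS library. Mean normalized CPM fell from 25.2 ± 1.56 to 16.8 ± 2.40 (SD, n = 4), giving -0.58 on the log2 scale (SE 0.13, adjusted p = 0.0036), and Mavs was lower under every alternative run. It was 1.49-fold lower in TNF, and without TNF replicate 4 the log2 value was -0.54 (adjusted p = 0.0035). An antisense RNA that is not in the count table, Gm75131, covers 606 of its exon bases.

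**Figure D2:**
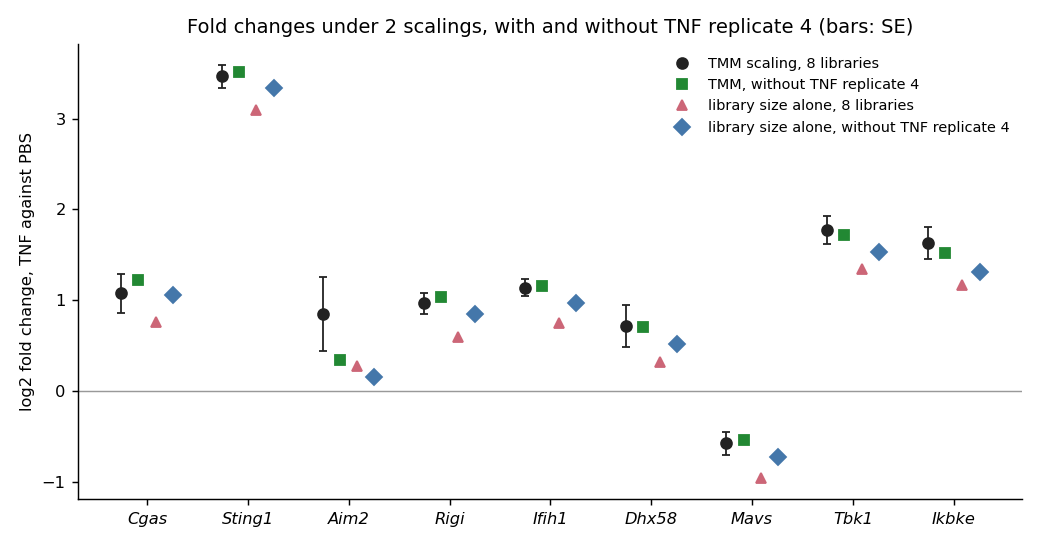
Log2 fold change of each member, TNF against PBS (vertical axis), with TMM or library size alone as the scaling and with or without TNF replicate 4; bars are the SE of the TMM fit on 8 libraries. Library size alone with all libraries (red triangles) gives the lowest value for every member except Aim2, and Mavs lies below 0 and Sting1 above 3 in all of them.

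Within a library, the count of Mavs went from 1.12 to 0.338 times that of Ifih1 and from 2.04 to 0.694 times that of Rigi (geometric means), with no overlap between the groups in either ratio. These ratios are of counts not divided by length, and both are descriptions with no test. The helicases were also set against each other. The ratio of Rigi to Ifih1 was 0.549 in PBS and 0.487 in TNF (log2 difference -0.17, two-sided exact permutation p = 0.0857, adjusted over 3 ratios 0.129). The ratio of Dhx58 to Ifih1 was 0.0320 in PBS and 0.0239 in TNF, lower in all 4 TNF libraries (log2 difference -0.42, exact permutation p = 0.0286, the smallest this design allows, adjusted 0.0857). Neither ratio passed the adjusted threshold, and leaving out 1 library in turn gave differences from -0.22 to -0.12 and from -0.47 to -0.31.

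**Figure D3:**
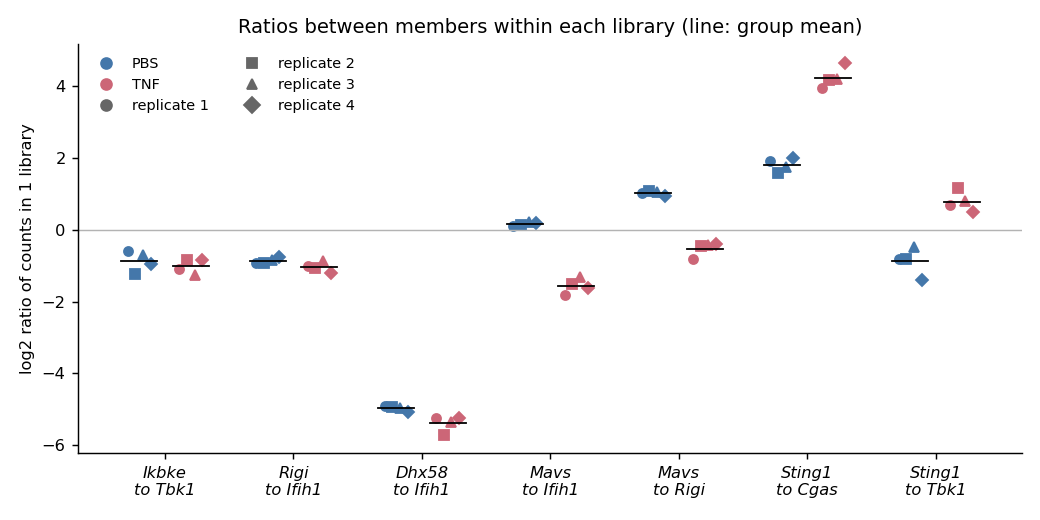
Log2 ratio of the counts of 2 members in the same library (vertical axis), for PBS (blue) and TNF (red); a marker shape stands for a replicate number and a line for the group mean. The 3 pairs on the left, which were tested, differ by at most 0.42 between the groups, while Mavs falls against both sensors and Sting1 rises against Cgas and Tbk1.

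Promoter sequence is shown for Ifih1 and Cgas, which rose and hold a match upstream of the start, and for Mavs, the member that fell. RefSeq promoter windows (GRCm38.p6, from 250 bases before to 50 after the start) were given for 7 of the 9 members, all but Sting1 and Dhx58. They were searched on both strands for GAAANNGAA (core of the interferon-stimulated response element), GGNNNTTCC (a short form of the NF-kB site) and TTCNNNGAA (a STAT pattern), where N is any base. These occur in 8.56%, 18.5% and 8.3% of the 32851 windows. Capitals mark the matches, no 2 matches overlapped, and positions are those of the first letter, counted from the start. The 250 bases upstream of Ifih1 (chr2:62646256-62646505, minus strand) hold a match to the first pattern at -112, read on the opposite strand, those of Cgas (chr9:78443238-78443487, minus strand) a match to the second at -80, and those of Mavs (chr2:131233813-131234062, plus strand) none.
Ifih1: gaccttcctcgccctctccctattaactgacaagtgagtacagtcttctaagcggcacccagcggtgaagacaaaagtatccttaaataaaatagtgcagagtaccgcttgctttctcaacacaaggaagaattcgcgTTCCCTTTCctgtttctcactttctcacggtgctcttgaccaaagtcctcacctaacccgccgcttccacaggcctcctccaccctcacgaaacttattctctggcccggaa
Cgas: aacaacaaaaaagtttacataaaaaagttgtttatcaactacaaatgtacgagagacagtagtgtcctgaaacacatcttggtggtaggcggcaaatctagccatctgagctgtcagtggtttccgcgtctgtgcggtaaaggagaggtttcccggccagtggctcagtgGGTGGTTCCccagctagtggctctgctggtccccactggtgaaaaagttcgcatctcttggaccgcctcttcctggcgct
Mavs: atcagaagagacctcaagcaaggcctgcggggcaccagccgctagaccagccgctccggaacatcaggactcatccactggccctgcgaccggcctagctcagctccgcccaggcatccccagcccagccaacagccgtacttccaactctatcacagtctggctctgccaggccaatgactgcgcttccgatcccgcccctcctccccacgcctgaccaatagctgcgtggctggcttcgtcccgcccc

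Both RNA sensors also had a match to the first pattern just after the start, shown here because both windows hold it. It was at 4 on the opposite strand in Rigi (chr4:40239803-40239832, minus strand) and at 33 in Ifih1 (chr2:62646206-62646235, minus strand).
Rigi: ctgaggcagtTTCGATTTCctatggccagc
Ifih1: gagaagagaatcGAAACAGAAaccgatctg
The windows of Aim2, Mavs, Tbk1 and Ikbke held none of the 3 patterns. A match is a description of the letters and not a binding site.

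Both kinases that STING and MAVS share were higher in TNF, by about 3-fold. Tbk1 (ENSMUSG00000020115, chromosome 10, 121382360 to 121422848, minus strand) had 14.3, 15.2, 13.3 and 20.3 normalized CPM in PBS and 53.3, 47.4, 54.2 and 61.7 in TNF. Ikbke (ENSMUSG00000042349, chromosome 1, 131182080 to 131207346, minus strand) had 9.49, 6.47, 8.12 and 10.4 in PBS and 24.8, 26.2, 22.7 and 34.0 in TNF. Every TNF library was above every PBS library for both genes, and TNF replicate 4 was the highest for both. Mean normalized CPM of Tbk1 rose from 15.8 ± 3.13 to 54.1 ± 5.85 (SD, n = 4), a 3.42-fold change (log2 1.78, SE 0.15, adjusted p = 7.89e-06). That of Ikbke rose from 8.62 ± 1.72 to 26.9 ± 4.93, a 3.10-fold change (log2 1.63, SE 0.18, adjusted p = 3.76e-05). Without TNF replicate 4 their log2 fold changes were 1.72 and 1.52. The ratio of Ikbke to Tbk1 counts was 0.545 in PBS and 0.494 in TNF, a log2 difference of -0.14 that did not pass the test (exact permutation p = 0.4), with group values that overlapped. Antisense RNAs Gm28913 and Gm28914 share 175 and 159 exon bases with Ikbke and had at most 29 counts in a library.

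Per kilobase of merged exons, which allows genes to be compared, Tbk1, Sting1 and Ifih1 were the most abundant members in PBS, at 2.78, 2.65 and 2.50 normalized CPM per kb, and these neighbors overlapped. Mavs followed at 2.21, Rigi at 1.47, Ikbke at 0.828, Cgas at 0.469, Dhx58 at 0.213 and Aim2 at 0.142, each separate from the next in all libraries. In TNF the order changed: Sting1 was first at 29.2, then Tbk1 at 9.55, Ifih1 at 5.50, Rigi at 2.86, Ikbke at 2.59, Mavs at 1.48, Cgas at 0.970, Dhx58 at 0.353 and Aim2 at 0.274. Rigi overlapped Ikbke there, and Dhx58 overlapped Aim2. Mavs thus went from rank 4 to rank 6. With the length of the canonical transcript in place of merged exons Sting1 had rank 4 in PBS and Mavs rank 2, and in TNF Sting1 stayed first at 40.5 and Mavs kept rank 6.

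**Figure D4:**
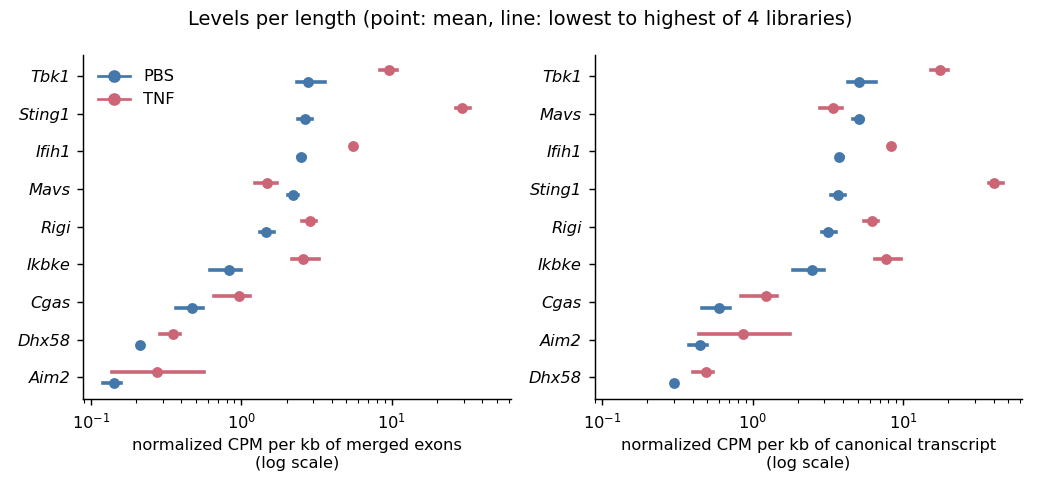
Normalized CPM per kb (horizontal axis, log scale) of the 9 members in PBS (blue) and TNF (red), per length of merged exons (left) and of the canonical transcript (right); points are means and lines run from the lowest to the highest of 4 libraries. Sting1 is first in TNF in both panels, and its place in PBS depends on the length used.

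Likeness to Sting1 over the 8 libraries was the root mean square difference of log2 normalized CPM, with 0.5 added before the log, less the PBS mean. Among 8204 protein-coding genes with a mean of at least 5 normalized CPM, the nearest were Neurl3 (difference 0.13), Ier3 (0.14), Cebpd (0.17), Mfsd6l (0.18) and Hk2 (0.19). The added 0.5 lessens the rise of genes low in PBS, such as Ier3 (mean 1.19, log2 fold change 3.91) and Cebpd (3.01, 3.77). Neurl3 went from 28.6 ± 1.5 to 324.2 ± 40.6 normalized CPM and Hk2 from 21.8 ± 3.67 to 217.9 ± 48.8 (SD, n = 4). These values are a description of likeness over 8 libraries that share the 2 groups.

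The rest of the pathway was described with 8 lists holding 107 genes, also chosen with earlier results of these data known. Of the 107 genes 88 passed the filter on low counts. Of these 47 (53.4%) were called higher and 13 (14.8%) lower, beside 23.4% and 19.6% of all genes tested. However, 7 of the 47 (Lrrc8c, Oas2, Oas3, Nlrc5, Cxcl10, Ifit1 and Rsad2, identified after their values were seen) were over the cutoff of that filter in at most 1 PBS library, so 6 of them were tested only through their TNF values and had to be higher there, and Lrrc8c passed with 3 TNF libraries and 1 PBS library. Among genes over the cutoff in all 8 libraries, 40 of 79 were higher (50.6%) and 12 lower (15.2%), beside 24.8% and 18.8% of all such genes, with a median log2 fold change of 0.35 against 0.06. With library size alone 14 were higher and 10 lower (median 0.17, against -0.38 for all genes), beside 5.66% and 18.1% of all genes. When TNF replicate 4 was left out too, 42 were higher and 17 lower, beside 16.4% and 28.2%. Of the genes named below by rule, Abcc1, Lrrc8a, Trim56, Eif2ak2, Marchf5, Irf5, Irf7, Optn, Traf3 and Casp1 were not called with library size alone (adjusted p between 0.0629 and 0.476), and all of them except Lrrc8a were called when TNF replicate 4 was left out too. Of those named afterwards, Smpdl3a, Stim1, Smurf2, Tkfc, Oasl1, Oas2 and Nlrc5 also lost their call with library size alone (adjusted p between 0.0541 and 0.144). Oas2 and Nlrc5 lost it without TNF replicate 2 too (adjusted p = 0.0583 and 0.0503). Leaving out a single library ended the call of Enpp3 (PBS replicate 3, TNF replicates 1 and 3), Smpdl3a (PBS replicates 2 and 3, TNF replicates 1, 2 and 3), Tmem203 (PBS replicates 1, 2 and 3, TNF replicates 2 and 3) and Smurf2 (PBS replicates 1, 3 and 4, TNF replicates 1 and 2), with adjusted p between 0.0519 and 0.0984. The named genes that were tested have no overlap between the groups in normalized CPM unless stated (Nlrc5 does overlap). Genes said to be named afterwards were chosen after their values were seen.

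Among partners in DNA sensing and nucleases, 1 of 8 tested was higher and 1 lower (12.5% each, beside 23.4% and 19.6% of all genes). The list's median log2 fold change was -0.04 and became -0.49 with library size alone, while that of all genes went from 0.03 to -0.38. Zbp1, a sensor of Z-form nucleic acid, rose from 6.46 ± 0.757 to 21.4 ± 2.75 normalized CPM (SD, n = 4, log2 fold change 1.72, adjusted p = 5.1e-06). Dnase2a, a lysosomal DNase named afterwards, was lower with overlapping groups (log2 -0.65, adjusted p = 0.0227), a call lost without TNF replicate 3. The DNA sensor family genes Ifi204, Ifi203, Ifi207 and Ifi211 had no count in any library, which allows up to 3 counts, or 0.0921 to 0.126 plain CPM, for reads that could be assigned to them. They share sequence with each other and with relatives, and 80.4%, 88.3%, 97.2% and 35.9% of their 75-base stretches are unique. Trex1, the main cytosolic DNase, was also at 0, but all 1147 of its exon bases lie within Atrip on the same strand, so this 0 does not measure it.

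For transport and breakdown of cGAMP, the messenger between cGAS and STING, 3 of 9 genes were higher and 3 lower (33.3% each, beside 23.4% and 19.6% of all genes). With library size alone 1 was higher and 2 lower, beside 5.66% and 18.1% of all genes. Slc19a1, a folate carrier that also imports cyclic dinucleotides in human cells, fell from 57.7 ± 7.16 to 23.8 ± 3.26 normalized CPM (SD, n = 4, log2 -1.27, adjusted p = 3.47e-05). The exporter Abcc1 rose from 28.9 ± 1.47 to 49.5 ± 2.31 (log2 0.78, adjusted p = 0.000104). Lrrc8a, the core subunit of a cGAMP-permeable channel, rose by 0.87 on the log2 scale (adjusted p = 0.0197), but 33.9% of its 75-base stretches are unique, and the call was lost without TNF replicate 3 (adjusted p = 0.0614). Enpp1, the hydrolase of extracellular cGAMP, had 17.9 ± 1.62 and 20.3 ± 2.67 normalized CPM (log2 0.19, adjusted p = 0.269, overlapping), and leaving out TNF replicate 4 gave a call as higher (log2 0.28, adjusted p = 0.0411), while library size alone gave -0.15. The others called, named afterwards, were Lrrc8c (log2 2.54, overlapping, over the cutoff in 3 TNF libraries and 1 PBS library), Enpp3 (-1.18, overlapping) and Smpdl3a (-0.35). The count called lower was 1 without PBS replicate 3, TNF replicate 1 or TNF replicate 3, and the count called higher was 5 without TNF replicate 4. The list's median was 0.19 and turned to -0.15 with library size alone, while that of all genes went from 0.03 to -0.38.

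Of 16 tested genes for STING traffic and its regulators 6 were higher and 5 lower, which 23.4% and 19.6% of all genes were. With library size alone 2 were higher and 4 lower, beside 5.66% and 18.1% of all genes. The list's median log2 fold change was 0.11 and turned to -0.26 with library size alone, while that of all genes went from 0.03 to -0.38. Rhbdf2, whose product iRhom2 assists STING traffic, rose from 10.4 ± 0.676 to 36.3 ± 5.39 normalized CPM (SD, n = 4, log2 1.81, adjusted p = 2.45e-06). The protease Usp18 rose from 0.705 ± 0.111 to 5.29 ± 1.71 (log2 2.92, adjusted p = 1.12e-05). The ubiquitin ligase Trim56 rose from 19.9 ± 7.79 to 43.2 ± 4.84 (log2 1.12, adjusted p = 0.00253). The 5 lower genes, named afterwards, were Trim32 (log2 -0.91), Rnf5 (-0.70), Usp20 (-0.68), Stim1 (-0.58) and Tmem203 (-0.54). Of the 75-base stretches 51.4% are unique in Rnf5 and 29.9% in Tmem203, and Tmem203 lost its call when any of PBS replicates 1, 2 and 3 or TNF replicates 2 and 3 was left out. Rnf5 is a ligase that marks STING for breakdown, and Stim1 holds STING at the endoplasmic reticulum.

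Cofactors and effectors of RNA sensing had 15 of 21 tested genes higher and 1 lower (beside 23.4% and 19.6% of all genes), with a median log2 fold change of 0.78. With library size alone 2 were higher and 1 lower, beside 5.66% and 18.1% of all genes. Without TNF replicate 4 as well 15 were higher and 1 lower, beside 16.4% and 28.2%. Oas3, an oligoadenylate synthetase that responds to double-stranded RNA, rose from 0.219 ± 0.0590 to 2.93 ± 1.09 normalized CPM (SD, n = 4, log2 3.72, adjusted p = 1.67e-05), but it had 5 to 13 counts in PBS and was tested only through its TNF values, as was Oas2. Of the genes of this list over the cutoff in all 8 libraries 13 of 18 were higher, beside 24.8% of all such genes. Eif2ak2, the RNA-activated kinase PKR, rose from 8.67 ± 2.68 to 23.6 ± 2.43 (log2 1.44, adjusted p = 0.000267). The lower gene, named afterwards, was Prkra (log2 -0.72), whose product activates PKR.

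Brakes on RNA sensing had 6 of 13 genes higher and 2 lower, beside 23.4% and 19.6% of all genes. With library size alone 2 were higher and 0 lower, beside 5.66% and 18.1%. The 6 include Nlrc5, which was tested only through its TNF values. Of the genes of this list over the cutoff in all 8 libraries 5 of 12 were higher and 2 lower, beside 24.8% and 18.8% of all such genes. The median of the brakes was 0.04 and turned to -0.41 with library size alone, while that of all genes went from 0.03 to -0.38. Rnf125, a ligase for RIG-I, rose from 3.23 ± 0.0714 to 13.9 ± 5.61 normalized CPM (SD, n = 4, log2 2.11, adjusted p = 0.000101). Nlrx1, a mitochondrial protein that restrains MAVS, rose from 5.32 ± 0.557 to 17.7 ± 3.35 (log2 1.73, adjusted p = 1.12e-05), and the mitochondrial ligase Marchf5 rose by 0.74 on the log2 scale (adjusted p = 0.00229). The lower genes, named afterwards, were Smurf2 (-0.34) and Tkfc (-0.55, overlapping), and a single gene of the list was called lower when any of PBS replicates 1, 3 and 4 or TNF replicates 1 and 2 was left out.

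**Figure D5:**
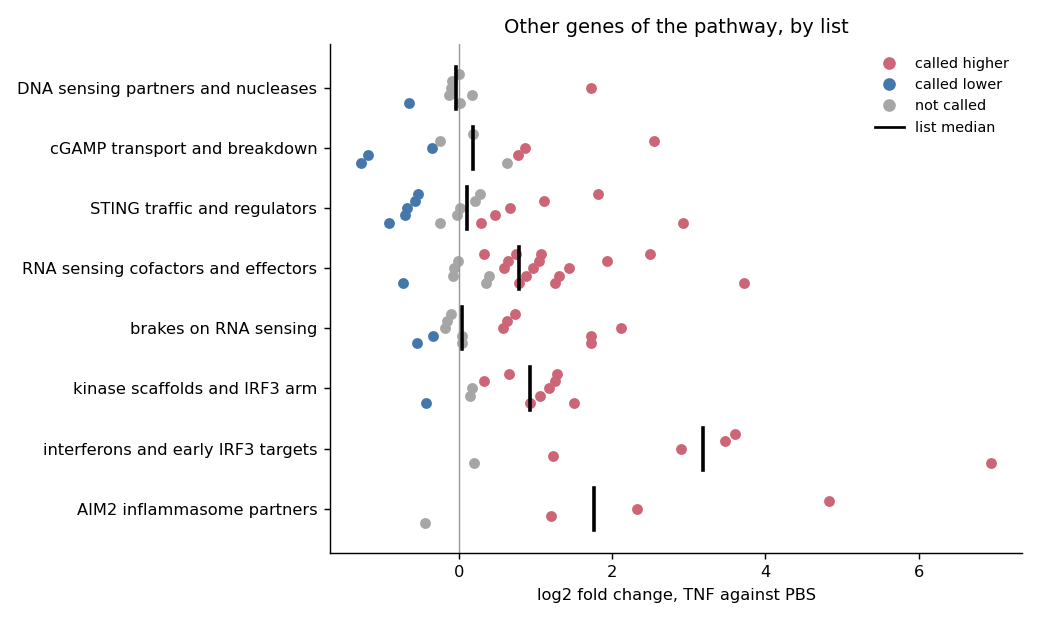
Log2 fold change, TNF against PBS (horizontal axis), of the tested genes of the 8 pathway lists (rows); red and blue points were called higher and lower, grey points were not called, and black lines are list medians. Medians lie near 0 for the DNA sensing partners (-0.04) and the brakes (0.04) and the interferon line covers only the 6 genes of that list that passed the filter.

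Scaffolds of the kinases and the IRF3 arm had 8 of 11 tested genes higher and 1 lower, beside 23.4% and 19.6% of all genes (median log2 fold change 0.93). With library size alone 0 were higher and 1 lower, beside 5.66% and 18.1% of all genes. Irf3, the factor that TBK1 phosphorylates, had 25.1 ± 1.80 and 28.4 ± 5.38 normalized CPM (SD, n = 4, log2 0.18, adjusted p = 0.337, and -0.28 with library size alone), with overlapping groups. Its relatives Irf7 (log2 1.28, adjusted p = 0.000157) and Irf5 (log2 1.25, adjusted p = 6.19e-05) rose. The autophagy receptor Optn, which binds TBK1, rose from 7.05 ± 3.19 to 20.1 ± 2.35 (2.82-fold, adjusted p = 0.000954), and Traf3, a ligase between MAVS and the kinases, from 13.1 ± 4.05 to 24.9 ± 3.17 (log2 0.93, adjusted p = 0.00328). The lower gene, named afterwards, was Ikbkg (log2 -0.43), which encodes NEMO.

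None of the interferon genes listed (Ifnb1, Ifna2, Ifna4, Ifne, Ifnk, Ifnl2 and Ifnl3) had a count in any of the 8 libraries, with the same limit of 3 counts per library. Ifnl2 and Ifnl3 share sequence with each other (79.6% and 74.8% of their 75-base stretches are unique). Of 8 early targets listed, Ccl5 and Ifit3 had 0 to 4 counts per library and did not pass the filter, which Cxcl10, Ifit1 and Rsad2 passed through their TNF values, so the number called among the 6 tested is no measure of the list. Cxcl10, a chemokine, had 2, 1, 2 and 37 counts in PBS and 1003, 986, 1417 and 330 in TNF (log2 6.94, adjusted p = 7.07e-06). Without PBS replicate 4 its log2 fold change was 9.23. Isg15, a ubiquitin-like modifier, rose from 0.431 ± 0.0854 to 3.19 ± 0.236 normalized CPM (SD, n = 4, log2 2.89, adjusted p = 4.36e-06). Ifit1 rose by 3.47 on the log2 scale (adjusted p = 0.000183), and Rsad2 (3.60) and Oasl1 (1.23), named afterwards, were also called. Ifit2, named afterwards, had a log2 fold change of 0.19 (adjusted p = 0.66, overlapping).

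The list of AIM2 inflammasome partners, which also takes in inflammasome genes not particular to AIM2, had 3 of 4 tested genes higher, beside 23.4% of all genes. With library size alone 2 were higher and 1 lower, beside 5.66% and 18.1% of all genes. Casp4, an inflammatory caspase that cuts gasdermin D and is not particular to AIM2, rose from 3.78 ± 0.923 to 108.5 ± 24.3 normalized CPM (SD, n = 4, log2 4.83, adjusted p = 2.19e-07). Gsdmd itself rose from 2.75 ± 0.573 to 13.8 ± 3.20 (log2 2.33, adjusted p = 1.02e-05). Casp1 rose from 10.8 ± 0.883 to 25.0 ± 7.82 (log2 1.20, adjusted p = 0.000621). Pycard, the adaptor ASC that joins AIM2 to caspase-1, had 39.2 ± 3.88 and 29.1 ± 13.4 (log2 -0.44, adjusted p = 0.174, overlapping), and leaving out TNF replicate 4 gave a call as lower (log2 -0.79, adjusted p = 0.000146), as did library size alone (-0.99, adjusted p = 0.0107) and no filter beyond 1 count (-0.52, adjusted p = 0.0406). The cytokine gene Il18 had 2 to 11 counts per library and Aim2 itself was not called, as given above.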

How the data were processed

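The authors deposited raw counts per Ensembl gene ID for 8 libraries of sorted Paneth cells (4 PBS, 4 TNF, grouped by their labels), with no normalization. The labels give the Aurum Total RNA Mini kit for extraction and the TruSeq Stranded mRNA kit for libraries. The submitters' processing notes name FastQC 0.12, STAR 2.7.10a, DESeq2 and the mm39 build. For the deposited counts, the counter, annotation, use of strand and treatment of reads that match several genes were not given in the sources used here, so overlapping and antisense genes are uncertain. The methods name a GENCODE annotation for the authors' own alignment with another STAR version, and do not say that it made these counts. Names, positions (GRCm39) and lengths came from GENCODE mouse release 39 by ID (54749 of 55414 IDs matched), and promoter windows from RefSeq (GRCm38.p6).

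Genes were tested with edgeR 4.0.16 in R 4.3.3 (quasi-likelihood F test, TMM scaling, filterByExpr, no covariate, Benjamini-Hochberg over all 13368 genes tested, adjusted p under 0.05). DESeq2 1.42.0 and limma-voom (limma 3.58.1) were alternatives. Normalized CPM divide counts by the TMM-adjusted library size, plain CPM by all counts. Ratios of counts were compared over all 70 assignments of the libraries (exact permutation test, two-sided, SciPy 1.17.1) and adjusted over 3 ratios. Limits from 0 counts cover counting error only. In a test on simulated counts for TNF against PBS, the fit found 169 of 196 altered genes (13636 genes in all) and made 7 false calls. The simulation had few altered genes, where 43.0% were called in the data. It also had the same spread for all genes and no library like TNF replicate 4. It therefore does not give the rate of false calls in these data.

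The members and gene lists were chosen with earlier results of these data known. Named genes were all members, up to 3 genes of each pathway list with the largest absolute log2 fold change (called, mean of at least 1 normalized CPM, groups without overlap), 11 genes named whatever their values (Ifnb1, Ifnl2, Ifnl3, Irf3, Irf7, Trex1, Enpp1, Traf3, Pycard, Casp1 and Il18) and the 5 genes nearest to Sting1. A gene and a marker that this takes in are not reported here. A chi-square comparison of libraries within each group, on genes whose counts summed to 20 or more, found no duplicates. No library was left out of the fit unless stated.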

Additional observations from a re-analysis of the deposited data

Results flagged for a closer look

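Each of 96 groups of 4 values (members, named pathway genes and ratios) was searched for a library far from the other three, which chance alone gives in about 1 group in 20, and 5 had one. Aim2 was at 3.69 normalized CPM in TNF replicate 4 against 0.912 to 1.35 in the other TNF libraries. Pycard, its inflammasome adaptor, was at 48.9 in the same library against 20.3 to 24.4. Abcc1, the cGAMP exporter, was at 46.0 there against 50.3 to 51.1. Cxcl10 was at 0.837 in PBS replicate 4 against 0.0372 to 0.0788 in the other PBS libraries, and Casp1 was at 12.1 in PBS replicate 1 against 10.2 to 10.4. TNF replicate 4, which holds 3 of these values, is also the library with the lowest scaling factor (0.448), whose part in them was not tested.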

How the results depend on the processing

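The number of members called, other than Sting1, was 7 and stayed at 6 or 7 under RLE scaling, scaling without Defa genes, Lyz1 and Itln1, other filters, DESeq2, limma-voom, an adjusted p under 0.01 and each library left out in turn (6 to 7), and it was 3 with library size alone. The number of other pathway genes called was 60, and 24 with library size alone, 45 at an adjusted p under 0.01 and 50 to 64 with a library left out. The shares of all genes called higher and lower moved too, from 23.4% and 19.6% to 5.66% and 18.1% with library size alone. They were 18.7% and 17.3% without TNF replicate 2, which gave the 50, and 26.6% and 23.8% without TNF replicate 4, which gave the 64. No share of all genes is given at an adjusted p under 0.01, so the counts there have nothing to be set against. No member changed direction. With library size alone Cgas, Rigi, Ifih1 and Dhx58 were no longer called, and with TNF replicate 4 also left out Dhx58 alone of these was not (log2 0.52, adjusted p = 0.145). Dhx58 was also lost without the filter (0.68, adjusted p = 0.142) and could not be tested at 1 CPM or more in at least 4 libraries. Sting1 in PBS was 2.65 normalized CPM per kb, 3.68 with the canonical length, 3.11 with library size alone and 2.55 to 2.74 with a library left out, and in TNF 29.2, with 40.5 for the canonical length and 27.8 to 30.03 with a library left out. The difference in log2 ratio of Ikbke to Tbk1 ranged from -0.27 to -0.05 with a library left out. No pairing by replicate number was seen: deviations of equal-numbered libraries correlated between -0.144 and 0.066, and not every library correlated best with its own number. Such a check cannot show that the libraries were unpaired. With the replicate block 6 members and 52 other pathway genes were called, the latter 43 higher and 9 lower, beside 20.5% and 17.5% of all genes. Dhx58 lost its call (adjusted p = 0.0701), as did Enpp3, Smpdl3a, Tmem203 and Smurf2 (adjusted p between 0.0631 and 0.083). The ratios, tested by sign flips over pairs (smallest possible p 0.125), had adjusted p of 0.5, 0.188 and 0.188. Aim2 and Dhx58 had 15 to 43 counts per library, and the part of depth in their values was not tested.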
